A study of Mus musculus with 10 samples.

Results

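Pax2, Pax5 and Pax8 were followed in RNA from the cerebellum of mouse embryos at E13.5, in mid-gestation. They were taken by name, as 3 of the 22552 genes in the authors' table of RPKM values (read numbers divided by gene length and by library size), and all 3 passed the filter on low values. There were 4 libraries from Ezh2 deletion cerebella and 4 from wild type cerebella. Ezh2 deletion here means a floxed allele recombined by Pax7-Cre, so it covers only cells with a history of Pax7 expression, and a Rosa-YFP reporter allele was bred along to guide the dissection. The labels give wild type for the other group, without saying whether it carried Cre or the reporter, and a mixed C57BL/6 and 129 strain background for both. H3K27me3 ChIP-seq, with 1 sample per genotype, was not analysed here.

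The 3 genes form one subfamily of the Pax transcription factors, which bind DNA through a paired domain. EZH2 is the catalytic subunit of the Polycomb complex that trimethylates histone H3 at lysine 27, a silencing mark found often at promoters rich in the dinucleotide CG. In the early embryo Pax2, then Pax5 and Pax8, are expressed at the border of midbrain and hindbrain, the isthmus, a signalling centre that organises midbrain and cerebellum through FGF proteins. Later in the cerebellum Pax2 is the usual marker of the precursors of inhibitory interneurons. Outside the brain Pax2 and Pax8 act in kidney and inner ear, Pax8 in the thyroid and Pax5 in B cells.

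Whether each library is a separate embryo is not stated, and the spread on which p-values rest may therefore be technical in part. Total depth is unknown. From the step that 1 read makes in rarely read genes, relative depth was 1.25 to 2.11 in Ezh2 deletion and 1 to 1.35 in wild type, with wild type 1 set to 1. The table lists Tuba1a, a gene of every neuron, at 0 throughout, and gives Gapdh, which every cell uses, no more than 0.252 RPKM, so a 0 or a low value can be a failed estimate. Ezh2 itself was at 48.7 to 64.4 RPKM in Ezh2 deletion and 73.6 to 84.7 RPKM in wild type, a log2 difference of -0.53 (limma adjusted p = 0.0074). Ezh2 deletion 4 held the most Ezh2 of the deletion libraries, and set alone against wild type its value of -0.29 missed the threshold (limma adjusted p = 0.146). RNA of both En genes and of Ptf1a, which the cerebellum expresses, was present in all 8 libraries. These genes are not limited to the cerebellum, so their RNA does not exclude neighbouring tissue. The genotypes also differed in sex-linked RNA. Xist, which coats the inactive X, reached 54.1 to 94.5 RPKM in Ezh2 deletion 1 to 3, but was at 0.094 RPKM in Ezh2 deletion 4 and at no more than 0.0712 RPKM in wild type. Ezh2 deletion 4 was thus the only deletion library like wild type in this respect, and for the other 3 deletion libraries genotype and this difference cannot be told apart. As the tissue is bulk, fewer cells of a type and less RNA per cell cannot be told apart.

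The promoters of the 3 genes differed in how many CG dinucleotides they hold, and they are shown here for that reason. The sequences are RefSeq's for assembly GRCm38.p6, from 250 bases before to 50 after a transcript start, 5′ to 3′ on the gene's strand, with each CG in capitals. For Pax2 the richest of its 3 listed starts is shown, chr19:44756656-44756955 on the plus strand. The Pax5 window is chr4:44710645-44710944 and the Pax8 window chr2:24475550-24475849, both on the minus strand.
Pax2: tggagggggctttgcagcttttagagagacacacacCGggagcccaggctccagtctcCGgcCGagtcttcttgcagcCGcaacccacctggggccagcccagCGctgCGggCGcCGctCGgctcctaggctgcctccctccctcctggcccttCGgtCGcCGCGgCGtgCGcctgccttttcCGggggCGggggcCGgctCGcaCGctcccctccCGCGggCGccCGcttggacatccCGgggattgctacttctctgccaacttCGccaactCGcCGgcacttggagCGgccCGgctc
Pax5: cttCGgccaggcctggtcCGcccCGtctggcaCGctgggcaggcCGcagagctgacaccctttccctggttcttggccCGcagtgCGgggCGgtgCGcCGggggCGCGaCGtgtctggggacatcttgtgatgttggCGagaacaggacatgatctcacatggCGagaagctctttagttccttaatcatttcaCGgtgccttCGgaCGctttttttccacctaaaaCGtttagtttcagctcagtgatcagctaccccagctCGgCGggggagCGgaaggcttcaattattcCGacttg
Pax8: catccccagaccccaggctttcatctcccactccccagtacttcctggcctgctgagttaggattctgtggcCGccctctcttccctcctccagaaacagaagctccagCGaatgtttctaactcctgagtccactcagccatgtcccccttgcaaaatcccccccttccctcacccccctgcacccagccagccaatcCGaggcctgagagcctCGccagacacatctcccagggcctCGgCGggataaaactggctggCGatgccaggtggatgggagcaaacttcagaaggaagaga
The Pax2 window held 30 CG, a number reached by 11.7% of the 32851 promoters in the RefSeq table. The other starts of Pax2 held 23 and 7. The Pax5 window held 23 CG, reached by 21.5% of promoters. The Pax8 window held 7 CG, which is the median of all promoters. The letters GTCACGC, the core of the site bound by the paired domain of this subfamily, were searched on both strands and were in none of the 5 windows, in 2.09% of all promoters, and in 1 of 15 promoters of isthmus genes, that of En1. A match of these letters is not evidence of binding, and their absence says only that they are not in this window.

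The first comparison asked whether loss of Ezh2 altered the RNA level of each gene. All 3 were higher in each of the 4 deletion libraries than in any wild type library, but only Pax2 and Pax8 passed the test over all genes. Of 14279 genes tested, 3.45% passed in either direction, 2.71% higher and 0.742% lower in Ezh2 deletion. In 6.79% of them the 4 deletion libraries all lay above the 4 wild type libraries.

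Pax2 was at 15.3, 16.7, 17.3 and 13.9 RPKM in Ezh2 deletion 1 to 4, and at 8.84, 7.30, 8.03 and 8.56 RPKM in wild type 1 to 4. Both groups were tight and did not overlap, and the lowest deletion library stood at 1.58 times the highest wild type library. Means were 15.8 ± 1.51 RPKM in Ezh2 deletion and 8.18 ± 0.677 RPKM in wild type (SD, n = 4), with coefficients of variation of 9.56% in Ezh2 deletion and 8.28% in wild type. The log2 difference, taken on log2(RPKM + 0.25), was 0.93 (SE 0.084, limma adjusted p = 2.5e-04).

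Pax8 was at 7.00, 8.06, 8.03 and 8.54 RPKM in Ezh2 deletion 1 to 4, and at 0.522, 1.99, 1.29 and 1.34 RPKM in wild type 1 to 4. The deletion libraries lay close together, while wild type 1 held the least and wild type 2 the most of the wild type libraries. Means were 7.91 ± 0.648 RPKM in Ezh2 deletion and 1.29 ± 0.602 RPKM in wild type (SD, n = 4), a ratio of 6.15. On the log2 scale Pax8 was higher by 2.50 (SE 0.278, limma adjusted p = 0.0015), the 53rd highest difference of the 14279 genes tested, against the 236th for Pax5 and the 262nd for Pax2.

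Pax5, a gene better known as the factor that commits cells to the B lineage, was at 24.5, 20.3, 28.0 and 31.8 RPKM in Ezh2 deletion 1 to 4, and at 5.99, 15.7, 15.8 and 16.2 RPKM in wild type 1 to 4. Wild type 2 to 4 were almost equal and wild type 1 stood well below them. Means were 26.1 ± 4.93 RPKM in Ezh2 deletion and 13.4 ± 4.95 RPKM in wild type (SD, n = 4), a ratio of 1.95 that is close to the 1.93 of Pax2. The log2 difference of 1.03 had an SE of 0.348 and did not pass (limma adjusted p = 0.193). Without wild type 1 the coefficient of variation of wild type was 1.75%, against 36.9% with it, and the log2 difference was 0.69 (SE 0.133) and passed (limma adjusted p = 0.0324). Each of the other single libraries could be left out without Pax5 passing. By exact permutation of the libraries (two-sided, 70 arrangements) each of the 3 genes had p = 0.0286, the lowest value this design allows.

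**Figure D1:**
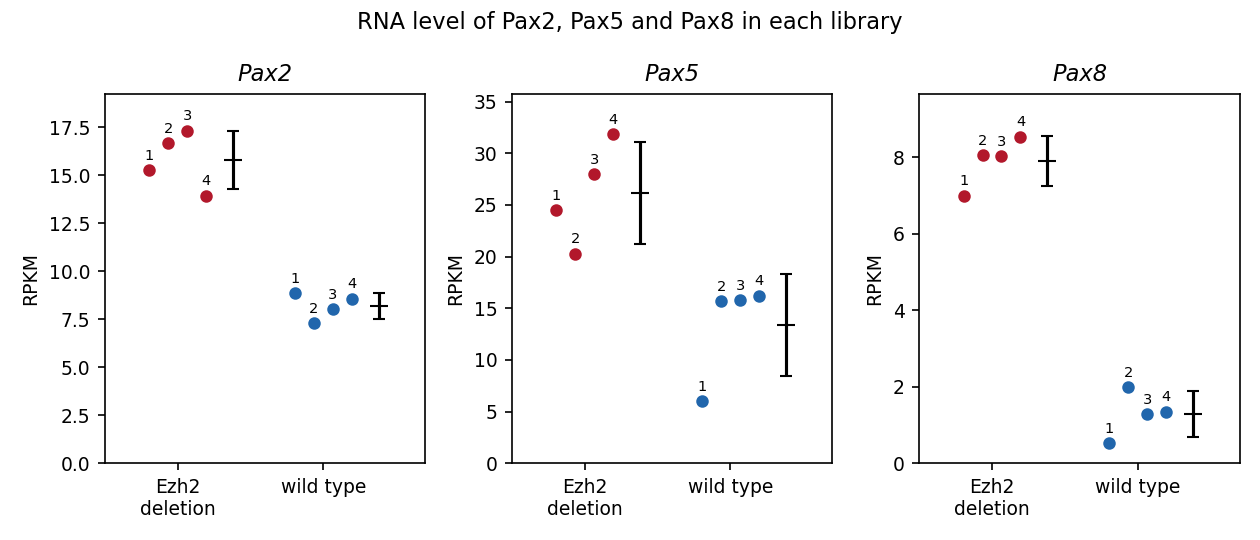
RPKM of Pax2, Pax5 and Pax8 in the 4 Ezh2 deletion libraries (red, left) and the 4 wild type libraries (blue, right), numbered by replicate, with the mean and SD beside each group (black). Every deletion point lies above every wild type point, and wild type 1 lies below the other wild type libraries for Pax5, at 5.99 RPKM, and Pax8, at 0.522 RPKM, but not for Pax2.

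Among the libraries that match in sex-linked RNA, Ezh2 deletion 4, which held the most Ezh2 RNA of the deletion libraries, was set against wild type. There the difference of Pax2 was 0.75 on the log2 scale (SE 0.124, limma adjusted p = 0.0343). That of Pax8 was 2.62 and no longer passed (SE 0.549, limma adjusted p = 0.0909), and that of Pax5 was 1.33 (SE 0.707, limma adjusted p = 0.406). With 1 deletion library the spread comes from wild type, and that library is taken to vary as much. Ezh2 deletion 4 held the most Pax5 and Pax8 and the least Pax2 of the deletion libraries.

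**Figure D2:**
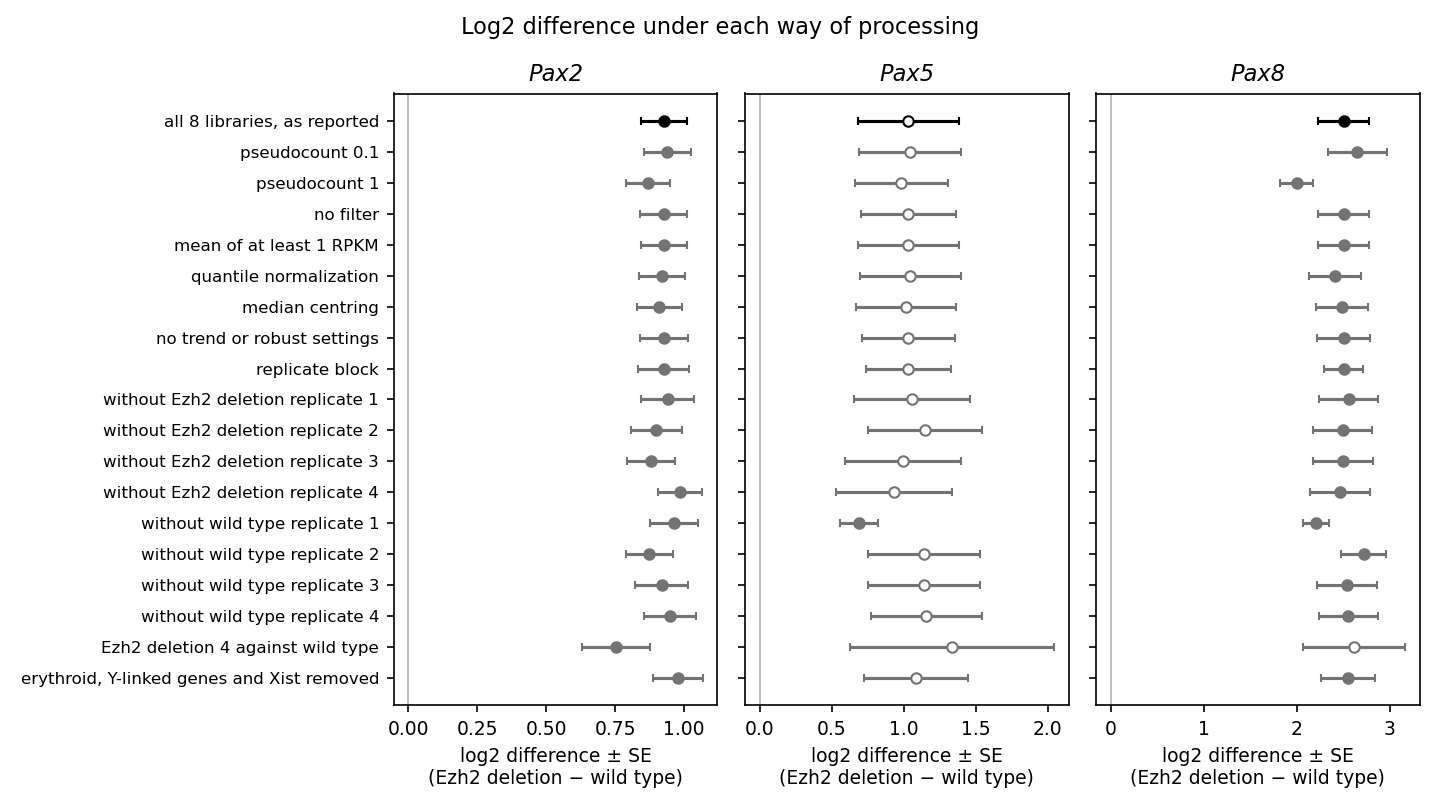
Log2 difference, Ezh2 deletion minus wild type, with SE (bars) for each gene under every way of processing that was tried; filled points have a limma adjusted p under 0.05. Pax2 is filled throughout, Pax8 is open only for Ezh2 deletion 4 against wild type, and Pax5 is filled only without wild type 1, where it is 0.69.

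RPKM is scaled to gene length, so levels can also be set side by side between the genes, as far as the lengths used are right. The annotation behind them was not given, so the order of the genes and their shares of a summed level are uncertain. In Ezh2 deletion the order was Pax5, Pax2, Pax8 in each library, with ranges of 20.3 to 31.8, 13.9 to 17.3 and 7.00 to 8.54 RPKM that did not overlap. In wild type Pax8, at 0.522 to 1.99 RPKM, was below the other 2 genes in each library. Pax5 was above Pax2 in wild type 2 to 4 but below it in wild type 1, where Pax5 was at 5.99 and Pax2 at 8.84 RPKM, so that the ranges of these 2 genes overlapped.

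The next comparison asked whether the 3 genes changed by equal amounts, using the ratio of 2 genes within each library. Pax8 per Pax2 was 0.459, 0.484, 0.463 and 0.613 in Ezh2 deletion 1 to 4, and 0.059, 0.273, 0.160 and 0.157 in wild type 1 to 4. All deletion ratios lay above all wild type ratios. The log2 difference of Pax8 exceeded that of Pax2 by 1.58 (SE 0.386) and that of Pax5 by 1.47 (SE 0.186). Both had an exact two-sided permutation p = 0.0286, or 0.0429 after Benjamini-Hochberg adjustment over the 3 pairs. Without any 1 deletion library the adjusted exact permutation p of both was 0.0857, and the excess stayed between 1.35 and 1.62. Pax5 per Pax2 was 1.68 ± 0.444 in Ezh2 deletion and 1.67 ± 0.671 in wild type (SD, n = 4). The log2 differences of these 2 genes differed by 0.11 (SE 0.424, exact permutation p = 0.886), which does not show that they changed alike. Without wild type 1 the value was -0.27 (adjusted exact permutation p = 0.286), and without Ezh2 deletion 4 it was -0.052.

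Summed over the 3 genes, the level was 45.0 to 54.3 RPKM in Ezh2 deletion and 15.4 to 26.1 RPKM in wild type. Pax8 made up 15.9% ± 1.37 of this sum in Ezh2 deletion and 5.41% ± 1.90 in wild type (SD, n = 4). The share of Pax5 was 52.1% ± 5.55 in Ezh2 deletion and 56.7% ± 11.8 in wild type, and that of Pax2 was 32.0% ± 4.70 in Ezh2 deletion and 37.9% ± 13.2 in wild type.

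**Figure D3:**
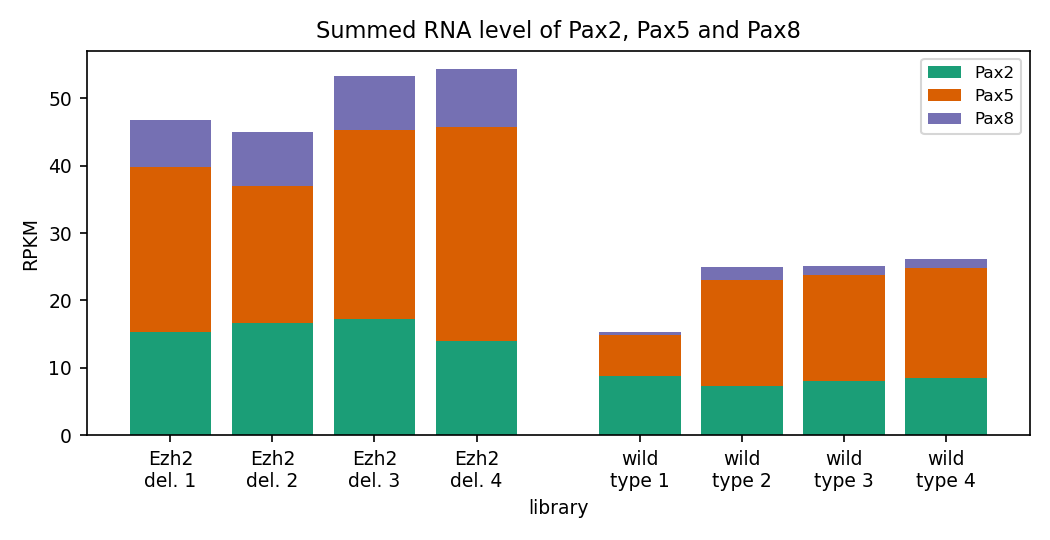
RPKM of Pax2, Pax5 and Pax8 stacked for each of the 4 Ezh2 deletion libraries (left) and the 4 wild type libraries (right). The deletion bars reach 45.0 to 54.3 RPKM and the wild type bars 15.4 to 26.1 RPKM, with the shortest bar in wild type 1.

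The other genes of the isthmus were taken from a list of 21, all tested. Of these, 4 were higher and 0 lower in Ezh2 deletion, against 2.71% higher and 0.742% lower over all genes tested. The median log2 difference was 0.16, against -0.012 over all genes tested. The 4 were Lmx1b, a factor needed to keep the isthmus organised, at 25.4 RPKM in Ezh2 deletion and 9.33 RPKM in wild type, Sp8, at 4.07 RPKM in Ezh2 deletion and 1.29 RPKM in wild type, and the inhibitors of FGF signalling Il17rd, at 16.4 RPKM in Ezh2 deletion and 9.22 RPKM in wild type, and Spry1, at 15.3 RPKM in Ezh2 deletion and 8.98 RPKM in wild type. Their log2 differences were 1.45, 1.43, 0.81 and 0.74, with limma adjusted p between 0.0065 and 0.0427. Spry2, Spry4 and Dusp6, which also restrain FGF signalling, did not pass, with log2 differences of -0.039, 0.10 and -0.14. Il17rd did not pass without wild type 1 to 4 or Ezh2 deletion 2 to 4, each left out singly (limma adjusted p up to 0.124). Lmx1b did not pass in Ezh2 deletion 4 against wild type (log2 difference 1.05, limma adjusted p = 0.225).

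Secreted signals of the isthmus did not pass with all 8 libraries. Fgf17, an FGF ligand, was at 17.3, 31.4, 25.7 and 41.7 RPKM in Ezh2 deletion 1 to 4 and at 3.35, 16.3, 9.77 and 12.5 RPKM in wild type 1 to 4. The groups did not overlap, but the log2 difference of 1.58 did not pass (SE 0.536, limma adjusted p = 0.202). Fgf8, the main organising signal, was at 0.161 to 3.10 RPKM in Ezh2 deletion and 0.101 to 0.347 RPKM in wild type, and the groups overlapped (limma adjusted p = 0.21). Fgf8 passed without Ezh2 deletion 1, the lowest deletion library (log2 difference 2.22, limma adjusted p = 0.0055). In Ezh2 deletion 4 against wild type its log2 difference was 2.83. Fgf8 averaged 0.232 RPKM in wild type, under the filter of 0.25 RPKM. It was tested only because of its level in Ezh2 deletion, so its passing carries little weight. Wnt1, at 3.80 RPKM in Ezh2 deletion and 3.28 RPKM in wild type, and Gbx2, a factor of the hindbrain side, at 18.2 RPKM in Ezh2 deletion and 17.0 RPKM in wild type, did not pass either (limma adjusted p = 0.845 and 0.73). En1, a homeobox gene that acts beside Pax2 in the early midbrain and hindbrain, was at 59.2 ± 5.04 RPKM in Ezh2 deletion and 42.9 ± 8.33 RPKM in wild type (SD, n = 4). Its groups did not overlap, and it passed only without wild type 1 (limma adjusted p = 0.12 with all libraries and 0.043 without it). En2 was at 103 RPKM in Ezh2 deletion and 102 RPKM in wild type (limma adjusted p = 0.943).

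**Figure D4:**
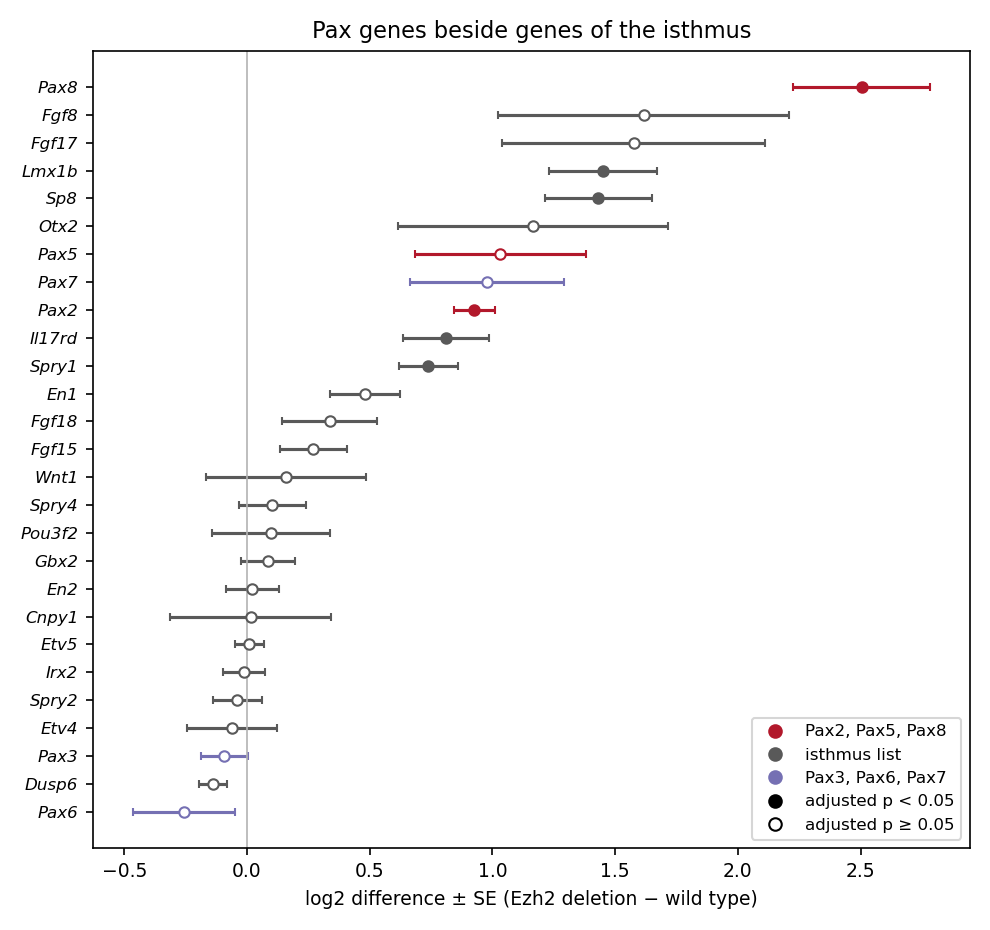
Log2 difference, Ezh2 deletion minus wild type, with SE (bars) for Pax2, Pax5 and Pax8 (red), the 21 genes of the isthmus list (grey) and Pax3, Pax6 and Pax7 (purple), sorted by size; filled points have a limma adjusted p under 0.05. Pax8 lies highest at 2.50, and Fgf8, Fgf17 and Otx2 have the widest bars.

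Many isthmus genes shared a pattern over libraries with Pax5. Within wild type, wild type 1 held the lowest level in 14 of the 21 genes, or 66.7%, against 31.3% of all genes tested. The same library was lowest in 13 of 24 genes of the GABAergic lineage, or 54.2%, so the order was not limited to the isthmus list. Within Ezh2 deletion, library 4 held the highest level in 15 of 21, or 71.4%, against 28.7% of all genes tested. These 2 libraries were singled out after their values were seen. Pax5 and Pax8 followed both sides of this order. Pax2 followed neither, being highest in wild type 1 and lowest in Ezh2 deletion 4, and Lmx1b had the order of Pax2, with 18.9 RPKM in Ezh2 deletion 4 and 13.0 RPKM in wild type 1. Otx2, the defining gene of the midbrain side, was at 4.14, 14.7, 15.3 and 21.1 RPKM in Ezh2 deletion 1 to 4 and at 7.55, 6.90, 3.86 and 3.51 RPKM in wild type 1 to 4. It was thus high in Ezh2 deletion 4 but not low in wild type 1, and it passed only without Ezh2 deletion 1 (limma adjusted p = 0.338 with all libraries and 0.0405 without it).

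**Figure D5:**
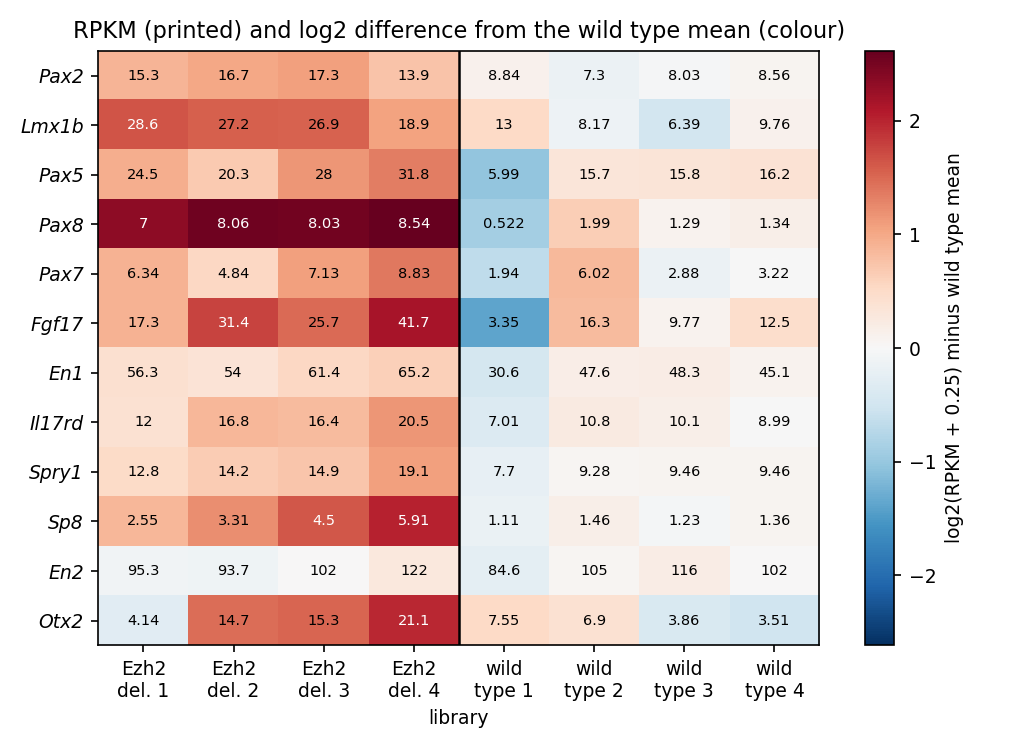
RPKM (numbers in the cells) of the 3 Pax genes beside Lmx1b, Pax7 and isthmus genes in the 4 Ezh2 deletion libraries (left) and the 4 wild type libraries (right); colour gives log2(RPKM + 0.25) minus the wild type mean of that gene. The cells of wild type 1 are blue for Pax5, Pax8, Pax7 and Fgf17 but not for Pax2 and Lmx1b, and the cells of Ezh2 deletion 4 are the reddest of their row for Pax5, Fgf17 and Sp8.

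Markers of neighbouring tissue and other cell types moved in part with these genes. Over all genes tested, 2.71% were called higher and 0.742% lower. Of 14 midbrain markers, Otx2, Pax3 and Pax7 among them, 12 were tested, 2 were higher (Pou4f1 and Pou4f2) and 0 lower. Their summed level was 103 to 176 RPKM in Ezh2 deletion and 88.3 to 109 RPKM in wild type. Of 13 hindbrain and brainstem markers Hoxa2, Hoxb2 and Slc6a4 were called higher. Hoxa2 was at 2.80 RPKM in Ezh2 deletion and 0.276 RPKM in wild type, while Hoxb2, at 2.65 RPKM in Ezh2 deletion and 0.0127 RPKM in wild type, and Slc6a4, at 0.445 RPKM in Ezh2 deletion and 0.126 RPKM in wild type, were tested only because of their level in Ezh2 deletion. The list had sums of 23.6 to 26.5 RPKM in Ezh2 deletion and 12.3 to 23.7 RPKM in wild type. Their part in the rise of Pax2 and Pax8 and in the levels of Pax5 was not tested. Of 13 markers of the inner ear, where Pax2 and Pax8 are also expressed, Dlx5, Hmx2 and Hmx3 were called higher, but all 3 averaged under 0.25 RPKM in wild type and were tested only because of their level in Ezh2 deletion, so their number carries no weight. These markers summed to 31.2 to 38.1 RPKM in Ezh2 deletion and 26.6 to 30.4 RPKM in wild type. Lmx1a, at 25.9 RPKM in Ezh2 deletion and 26.0 RPKM in wild type, was the largest part of these sums. Oc90, a defining otic gene, reached no more than 0.101 RPKM in any library. For B cells, where Pax5 acts, 13 of 14 markers were under 0.3 RPKM in every library and Blk and Vpreb2 were listed at 0 throughout. The exception was Ebf1, which the young cerebellum itself expresses, at 127 RPKM in both genotypes.

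The remaining markers were those of choroid plexus, mesenchyme and meninges, vessels and red blood cells. Choroid plexus markers summed to 16.6 to 182 RPKM in Ezh2 deletion and 4.42 to 13.3 RPKM in wild type, with the 182 RPKM in Ezh2 deletion 2, and 0 of 6 tested markers passed. This list holds Otx2. Without it, a choice made after the values were seen, the sums were 18.5, 167, 1.31 and 1.22 RPKM in Ezh2 deletion 1 to 4 and 1.78, 6.40, 0.567 and 1.72 RPKM in wild type 1 to 4, and the groups overlapped. Pax2 and Pax8 were also called without that library, with log2 differences of 0.90 and 2.49. Of 10 mesenchymal and meningeal markers only Twist1 was higher among 7 tested, against 2.71% of all genes tested. Sums were 47.9 to 74.1 RPKM in Ezh2 deletion and 30.6 to 53.6 RPKM in wild type. Crabp2, at 41.4 RPKM in Ezh2 deletion and 38.8 RPKM in wild type, was the largest part of these sums. Col1a1, Col1a2 and Col3a1 were highest in Ezh2 deletion 2, at 3.57, 5.36 and 5.22 RPKM. Next came wild type 2, at 0.608, 1.54 and 2.78 RPKM. Vascular markers summed to 47.3 to 71.3 RPKM in Ezh2 deletion and 56.2 to 66.9 RPKM in wild type. Erythroid markers summed to 317 to 683 RPKM in Ezh2 deletion and 386 to 463 RPKM in wild type, and 0 were called in either list.

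Of the 6 other Pax genes, 3 passed the filter on low values and 0 were called by limma, with 1, Pax7, at an unadjusted p under 0.05, a level that 17.7% of all genes tested reached. Pax3, which marks dorsal progenitors, was at 27.4 ± 3.06 RPKM in Ezh2 deletion and 29.2 ± 3.10 RPKM in wild type (SD, n = 4; limma adjusted p = 0.668). Pax6, a factor of the glutamatergic lineage, was at 23.5 RPKM in Ezh2 deletion and 27.2 RPKM in wild type (limma adjusted p = 0.571, and 0.0355 with a log2 difference of -0.47 without Ezh2 deletion 2). Pax7, the gene that drives Cre here, was at 6.34, 4.84, 7.13 and 8.83 RPKM in Ezh2 deletion 1 to 4 and at 1.94, 6.02, 2.88 and 3.22 RPKM in wild type 1 to 4. The groups overlapped through wild type 2, and Pax7 passed only without it (limma adjusted p = 0.156 with all libraries and 0.024 without wild type 2). Pax1, Pax4 and Pax9 were at no more than 0.0807 RPKM in any library.

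Because Pax2 marks the precursors of inhibitory interneurons, 24 genes of the GABAergic lineage were followed, all of them tested. Of these, 2 were higher and 1 lower, against 3.45% called in either direction over all genes, and the median log2 difference was -0.032. Slc6a5, a glycine transporter of inhibitory neurons, was at 2.95 RPKM in Ezh2 deletion and 1.49 RPKM in wild type (limma adjusted p = 0.0019). Zfhx3 was at 9.16 RPKM in Ezh2 deletion and 5.59 RPKM in wild type (limma adjusted p = 0.0234), and Foxp2, which Purkinje cells express, was lower, at 62.6 RPKM in Ezh2 deletion and 86.7 RPKM in wild type (limma adjusted p = 0.0388). Without wild type 1, without wild type 3 or without Ezh2 deletion 3, 1 of the 24 was called. Over all 14279 genes tested, 413, 289 and 278 were called in these fits, in that order. Zfhx3 did not pass in 5 of the 8 fits that left out 1 library (Ezh2 deletion 1, 3 or 4, or wild type 1 or 3; limma adjusted p up to 0.0794). Foxp2 did not pass when any 1 wild type library, Ezh2 deletion 2 or Ezh2 deletion 3 was left out (limma adjusted p up to 0.112). In Ezh2 deletion 4 against wild type the log2 difference of Foxp2 was -0.81, against -0.48 with all libraries. That of Slc6a5 was 0.88 there, as with all libraries. Ptf1a, which specifies GABAergic cells of the cerebellum, was at 3.86, 2.04, 2.61 and 3.25 RPKM in Ezh2 deletion 1 to 4 and at 3.90, 3.90, 4.92 and 4.67 RPKM in wild type 1 to 4. All 4 deletion libraries lay below the 4 wild type libraries, as in 5.61% of genes tested, but the log2 difference of -0.56 did not pass (SE 0.172, limma adjusted p = 0.125).

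Genes of young GABAergic neurons and of GABA itself did not pass. Of the homeobox genes of young GABAergic neurons, Lhx1 was at 63.5 RPKM in Ezh2 deletion and 81.6 RPKM in wild type (limma adjusted p = 0.134) and Lhx5 at 63.7 RPKM in Ezh2 deletion and 72.6 RPKM in wild type (limma adjusted p = 0.483). Of the GABA-synthesising enzymes, Gad1 was at 23.5 RPKM in Ezh2 deletion and 24.1 RPKM in wild type (limma adjusted p = 0.738). Gad2 was at 28.4 RPKM in Ezh2 deletion and 31.3 RPKM in wild type (limma adjusted p = 0.713). Slc32a1, which loads GABA into vesicles, was at 33.9 RPKM in Ezh2 deletion and 33.3 RPKM in wild type (limma adjusted p = 0.872).

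Pax factors act on chromatin through cofactors, and their RNA was followed too. Of 16 listed cofactors 15 were in the table and tested. Among these 0 were higher and 1 was lower, against 2.71% higher and 0.742% lower over all genes tested. Their median log2 difference was -0.0071. The lower one was Tle1, a Groucho corepressor, at 57.1 RPKM in Ezh2 deletion and 79.6 RPKM in wild type (log2 difference -0.48, limma adjusted p = 0.0014). Tle4, the Groucho protein known to bind Pax5, was at 26.6 RPKM in Ezh2 deletion and 21.2 RPKM in wild type (limma adjusted p = 0.0697). Paxip1, which links Pax2 to a histone H3K4 methyltransferase, was at 15.8 RPKM in Ezh2 deletion and 16.1 RPKM in wild type (limma adjusted p = 0.791).

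Genes that work with Pax2 and Pax8 in kidney, ear and thyroid were taken from a list of 27, of which 16 passed the filter. Of these 16, 4 were higher and 0 lower in Ezh2 deletion, against 2.71% higher and 0.742% lower over all genes tested. The median log2 difference was 0.46, against -0.012 over all genes tested. The 4 were Sall1, Eya1, Eya4 and Emx2. Sall1 was at 10.3 RPKM in Ezh2 deletion and 5.77 RPKM in wild type (limma adjusted p = 5.9e-04), Eya1 at 3.92 RPKM in Ezh2 deletion and 2.14 RPKM in wild type, Eya4 at 0.746 RPKM in Ezh2 deletion and 0.215 RPKM in wild type and Emx2 at 0.576 RPKM in Ezh2 deletion and 0.104 RPKM in wild type. Emx2 was just past the threshold (limma adjusted p = 0.0484) and did not pass under most alternatives, including both other pseudocounts. In Ezh2 deletion 4 against wild type Eya1 had a log2 difference of 0.54, against 0.79 with all libraries, and Eya4 one of 1.03, against 1.09, and neither passed (limma adjusted p = 0.181 and 0.0823). Eya4 and Emx2 averaged under 0.25 RPKM in wild type and were tested only because of their level in Ezh2 deletion. The number called and the median include them and therefore carry no weight. Sall1 and Eya1 averaged above 0.25 RPKM in wild type. Wt1, Cdh16, Foxe1 and Tg, genes that define kidney or thyroid, were at no more than 0.0393 RPKM in any library.

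The genes beside the 3 Pax genes on their chromosomes did not pass. The nearest listed neighbours of Pax2 were Hif1an, at 17.5 RPKM in Ezh2 deletion and 17.8 RPKM in wild type, and Fam178a, at 14.5 RPKM in Ezh2 deletion and 15.8 RPKM in wild type. Ndufb8, one gene further from Pax2, was at 189 RPKM in Ezh2 deletion and 178 RPKM in wild type, and 4930414N06Rik, on the other side, at no more than 0.26 RPKM in any library. Pax5 lies between Melk, at 9.46 RPKM in Ezh2 deletion and 8.21 RPKM in wild type, and Zcchc7, whose log2 difference was 0.21, with Grhpr, at 7.74 RPKM in Ezh2 deletion and 6.66 RPKM in wild type, and Mir5106, listed at 0 throughout, one gene further. Pax8 lies between Psd4, at 0.0899 RPKM in Ezh2 deletion and 0.0874 RPKM in wild type, and Cacna1b, at 13.4 RPKM in Ezh2 deletion and 14.6 RPKM in wild type, with Il1rn, at no more than 0.0733 RPKM in any library, and Ehmt1, at 44.7 RPKM in both genotypes, one gene further. Over the 8 neighbours tested, limma adjusted p was between 0.175 and 0.997.

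Genes whose pattern over the 8 libraries was most like that of each Pax gene were found among 12585 tested genes with a mean of at least 1 RPKM. The measure was the root mean square difference between log2 profiles, each centred on its wild type mean, over the same 8 libraries. Nearest to Pax2 were Nr6a1, Sp9 and C1qtnf1, at distances of 0.085, 0.11 and 0.12. Nearest to Pax5 were Ripply3, Flrt1 and 5730457N03Rik, at distances of 0.24, 0.26 and 0.26, and all 3 were likewise lowest in wild type 1. Nearest to Pax8 were Cdkn2b, Crabp1 and Fndc3c1, at distances of 0.29, 0.34 and 0.37. The distance includes the genotype difference, so genes near in pattern also have a like log2 difference by construction.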

How the data were processed

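PolyA RNA-seq libraries of cerebellum, 4 of Ezh2 deletion and 4 of wild type, were grouped by sample title. The authors deposited RPKM values, 1 column per library. Bowtie, TopHat, SICER, Cuffdiff and build mm9 were used, per the submitters' processing notes. Their roles, versions, annotation and strand handling were not given in the sources used here, so overlapping genes and near-identical copies are uncertain. RPKM values are not counts, and no count model was used. Relative depth came from the commonest ratio between libraries in genes with a mean under 0.1 RPKM, where 73.1% of 9191 values other than a gene's smallest came within 0.05 of a multiple of that smallest.

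The test was limma 3.58.1 (R 4.3.3, statmod 1.5.0, eBayes with trend and robust) on log2(RPKM + 0.25), two-sided, for all genes averaging 0.25 RPKM or more. P-values were Benjamini-Hochberg adjusted over these genes, with a threshold of 0.05. Changes of low genes are understated on this scale. Single values used exact permutation over 70 arrangements. The fit was checked on simulated data. Alternatives covered pseudocount, filter, scaling, variance model, replicate block, each library left out, Ezh2 deletion 4 against wild type, and leaving out Xist and the erythroid and Y-linked genes.

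The members and lists were chosen with earlier results of these data known. By rule the text names Ezh2, the members, 3 genes of like pattern and 2 neighbours on each side of each member, up to 4 called genes of each list (or its most abundant member where none is called) and 18 fixed genes of the isthmus, the GABAergic lineage and the Pax family; others were named after their values were seen, and some genes are not reported here. Names and gene order came from RefSeq GRCm38.p6, which matched 99.0% of names, and 4 listed genes were found under older names. Listed but not found were Kmt2d and Ahsp.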

Additional observations from a re-analysis of the deposited data

Results flagged for a closer look

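Of 140 groups of 4 libraries checked, 12 had 1 library far from the other 3, and chance alone gives about 1 in 20. Wild type 1 stood below the other wild type libraries for Pax5, at 5.99 RPKM against 15.7 to 16.2 RPKM, and for the sum of the 3 Pax genes, at 15.4 RPKM against 25.0 to 26.1 RPKM. It was likewise low for Spry1, at 7.70 RPKM against 9.28 to 9.46 RPKM. It was also low for Flrt1, at 0.75 RPKM, and 5730457N03Rik, at 1.87 RPKM, but these were chosen for a pattern like that of Pax5, and the sum above contains Pax5, so they are not separate from it.

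The ratio of Pax8 to Pax2 was high in Ezh2 deletion 4, at 0.613 against 0.459 to 0.484 in Ezh2 deletion 1 to 3. The ratio of Pax8 to Pax5 was high in Ezh2 deletion 2, at 0.398 against 0.268 to 0.287 in the other deletion libraries, and in wild type 2, at 0.127 against 0.0816 to 0.087 in the other wild type libraries. Choroid plexus markers summed to 182 RPKM in Ezh2 deletion 2, against 16.6 to 22.7 RPKM in the other deletion libraries, and to 167 RPKM there without Otx2. Slc6a5 was at 1.77 RPKM in wild type 3, Sall1 at 6.59 RPKM in wild type 2, and the sum of vascular markers at 66.9 RPKM in wild type 2, each above the other wild type libraries.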

How the results depend on the processing

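Pax2 passed under all 18 alternatives, with log2 differences of 0.75 to 0.98, and Pax8 under all but Ezh2 deletion 4 against wild type (2.62). Pax5 passed under 1, without wild type 1 (0.69). With 1 library left out, Pax5 lay between 0.69 and 1.16 and the Pax8 minus Pax2 difference between 1.24 and 1.84. Pax8 minus Pax5 then lay between 1.35 and 1.58, and Pax5 minus Pax2 between -0.27 and 0.27 (-0.052 without Ezh2 deletion 4). With pseudocounts of 0.1 and 1 the log2 difference of Pax8 was 2.65 and 2.00, its wild type level of 0.522 to 1.99 RPKM being near them. Over all alternatives tried, Pax8 minus Pax2 lay between 1.13 and 1.86, and Pax8 minus Pax5 between 1.02 and 1.61. In Ezh2 deletion 4 against wild type the pair differences were 1.86 and 1.28 and could not pass, since 1 library against 4 allows no exact p under 0.2. Called genes over the table numbered 258 to 418 with 1 library left out (218 to 350 higher, 40 to 101 lower), against 493 (387 and 106) with all. They numbered 323 (204 higher) in Ezh2 deletion 4 against wild type, and 534 (479 higher, 55 lower) with Xist and the erythroid and Y-linked genes left out. With 1 library left out, 258 to 418 of 14279 genes were called, and 3 to 6 of 21 in the isthmus list (4 with all libraries). In these fits 1 to 3 of 24 in the GABAergic list and 0 or 1 of 3 other Pax genes were called. Of 15 cofactors 1 or 2 were called, and of 16 in the kidney, ear and thyroid list 3 or 4. Over all alternatives, where 258 to 534 genes were called, the GABAergic list reached 4 and the kidney, ear and thyroid list 6. Of the kidney, ear and thyroid list 2 were called with a filter of 1 RPKM, and of the cofactors 2 with Xist and the erythroid and Y-linked genes left out. Fits that leave out libraries rest on fewer of them, and for the other settings the cause was not tested.

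Deviations of same-numbered libraries had r between 0.0034 and 0.087, and 1 of 4 deletion libraries was closest to its own number. No pairing by number was seen, but with 4 libraries per genotype this check cannot exclude it. With a replicate block 353 genes were called, 53 of them lower, and 1 of the GABAergic list. Pax2, Pax5 and Pax8 had adjusted p of 0.0061, 0.198 and 0.0034 in limma, and the pair differences of 1.58 and 1.47 had adjusted exact p = 0.1875, with 0.125 the smallest unadjusted p possible.

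Uncalled genes near 0 changed sign: in Ezh2 deletion 4 against wild type Pax3 (0.080), Gbx2 (-0.19), Slc32a1 (-0.072) and Hif1an (0.0094); with Xist and the erythroid and Y-linked genes left out Gad1 (0.017) and Hif1an (0.027); with 1 library left out En2 (-0.063 to 0.090), Wnt1 (-0.12 to 0.379), Slc32a1 (-0.010 to 0.073) and Ehmt1 (-0.027 to 0.034); and with median centring Ehmt1 (-0.016). Unknown total depth limits low genes such as Fgf8.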

Other observations

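Several midbrain genes were high in Ezh2 deletion 4, the library with the most Pax5 and Pax8. It held the highest level of the deletion libraries in 9 of 12 tested midbrain markers, against 28.7% of all genes tested. Tal2, a factor of midbrain GABAergic neurons, was at 0.687, 0.814, 9.02 and 26.6 RPKM in Ezh2 deletion 1 to 4 and at 0.314 to 1.44 RPKM in wild type. Helt, which specifies those neurons, was at 0.136, 0.0864, 0.244 and 1.60 RPKM in Ezh2 deletion 1 to 4 and at no more than 0.145 RPKM in wild type. Neither passed (limma adjusted p = 0.426 and 0.375). Helt reached the filter on low values only through Ezh2 deletion 4, so its place among the 9 carries no weight. Wild type 1, the library with the least Pax5 and Pax8, was the lowest wild type library in 4 of the 12, close to the 31.3% of all genes tested. Tal2 and Helt were named after their values were seen.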
